A study of Mus musculus with 8 samples.

Results

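Cells with transcripts of 3 division genes after growth factors were withdrawn were examined in cultures of mouse hippocampal neural stem and progenitor cells. A cell was selected on the readout itself: it had a deposited log2 value above 0 for all of Top2a, Smc2 and Smc4, and came from a library of day 2, 4 or 8. Of 21220 cells in those 6 libraries, 192 met this rule (0.905%, exact 95% interval 0.782 to 1.04%), out of 30408 cells in the whole series. They are called rule cells here. They were set beside the 20430 cells of the same libraries with 0 for Top2a (Top2a-zero cells) and beside the 3283 of 9188 day 0 cells that met the same rule. By library the share of rule cells ran from 0.304% to 1.34%, a spread that the pooled interval does not cover.

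The study grew dentate gyrus stem and progenitor cells from embryos of C57BL/6J females mated to Kmt2d+/βgeo males, held them undifferentiated with EGF and FGF2 (day 0), and sampled them 2, 4 and 8 days after both factors were removed. The Kmt2d+/βgeo libraries carry the allele Mll2Gt(RRt024)Byg, a gene trap in 1 copy of Kmt2d, and the wild-type libraries are labelled C57BL/6J. Every library was made with 10x Chromium 3′ v3 reagents, in which a unique molecular identifier (UMI) marks 1 captured RNA molecule. The embryos were taken at embryonic day 18 by the labels, and the study's methods give another day. There was 1 library for each genotype and day, and pooling of embryos was not stated, so a genotype cannot be told apart from its culture. All intervals on shares cover counting error only.

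Dividing cells copy their DNA in S phase, then condense and separate the chromosomes in G2 and mitosis, and the genes for each task are switched on shortly before they are needed. Top2a encodes topoisomerase II alpha, which untangles DNA strands and is made mostly between S phase and mitosis. Smc2 and Smc4 encode the paired core subunits of condensin, the complex that compacts chromosomes for mitosis. Neural progenitors are kept dividing in culture by EGF and FGF2. Once these factors are withdrawn, most cells leave the cycle and take on neuronal or glial programmes.

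Some promoters of the genes that mark these cells carry short motifs linked to cell-cycle transcription and others do not, and 3 that carry them are shown so that the letters can be seen. Each runs from 250 bases before to 50 bases after a RefSeq gene start on GRCm38.p6, is written 5′ to 3′ along the gene's strand, and has in capitals every match, on either strand, to TTTGAA (the core of the cell-cycle homology element), CCAAT (the CCAAT box) or GGCGGGAA (an E2F motif). The Top2a promoter lies at chr11:99024140-99024439 on the minus strand, that of Smc2 at chr4:52438971-52439270 on the plus strand, and that of Kif11, the mitotic kinesin that rose with them, at chr19:37376132-37376431 on the plus strand.
Top2a: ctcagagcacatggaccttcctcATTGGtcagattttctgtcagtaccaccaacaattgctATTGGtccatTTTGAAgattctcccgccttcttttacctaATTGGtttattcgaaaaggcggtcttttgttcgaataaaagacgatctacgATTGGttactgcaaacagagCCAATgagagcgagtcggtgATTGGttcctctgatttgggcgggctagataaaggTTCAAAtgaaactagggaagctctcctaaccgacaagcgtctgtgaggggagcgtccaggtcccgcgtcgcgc
Smc2: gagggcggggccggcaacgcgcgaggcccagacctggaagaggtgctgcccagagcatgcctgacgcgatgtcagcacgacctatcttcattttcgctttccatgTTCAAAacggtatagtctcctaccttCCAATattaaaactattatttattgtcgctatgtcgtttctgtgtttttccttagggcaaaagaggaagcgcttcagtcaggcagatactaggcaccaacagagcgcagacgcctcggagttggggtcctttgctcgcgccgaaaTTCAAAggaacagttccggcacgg
Kif11: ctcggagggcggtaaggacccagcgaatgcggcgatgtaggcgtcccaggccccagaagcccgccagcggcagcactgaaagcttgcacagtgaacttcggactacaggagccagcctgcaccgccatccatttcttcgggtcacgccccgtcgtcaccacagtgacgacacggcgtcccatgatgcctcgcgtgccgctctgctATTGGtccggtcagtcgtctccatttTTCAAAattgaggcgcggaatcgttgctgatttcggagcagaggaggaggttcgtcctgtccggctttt
The Top2a promoter held 6 CCAAT and 2 TTTGAA matches, the Smc2 promoter 1 and 2, and the Kif11 promoter 1 and 1. None of these 3 held GGCGGGAA. The promoter of Nusap1, the tested gene with the largest rise, held 0 matches to any of the 3 motifs, and that of Mcm6 held 2 CCAAT and 0 of the others. Smc4 had no entry in the promoter table used.

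The 3 genes of the rule are described first, with no test, because they chose the cells. Mean Top2a in the rule cells was 7.86 normalised counts (the deposited log2 values turned back to a linear scale on which each cell sums to 8707) at day 2, 7.20 on day 4 and 10.8 on day 8 in the Kmt2d+/βgeo libraries. In wild type it was 10.4, 7.86 and 8.65 on the same days. At day 0 the means were 8.07 and 9.36, inside the range of the later libraries. Smc2 ranged from 3.32 to 7.31 and Smc4 from 2.98 to 4.05 over the 6 later libraries. In estimated UMIs, which are not scaled for depth, the median of Top2a per rule cell was 9.63 and 12.6 at day 0. It was between 2.00 and 7.50 later, below both day 0 libraries in all 6. The rule cells of the later libraries were also shallower. Their median UMIs in the matrix were 6473 to 12498, against 14639 and 13604 at day 0, so no order of Top2a is read from these medians.

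Averages hid a split among the rule cells. In estimated UMIs, 95 of 192 had at least 2 UMIs of each of the 3 genes, and 35 had 1 or fewer of each. Top2a ranged up to 70.5 UMIs in a cell, with a median of 3.30. Just inside the rule were these 35 cells, and just outside it were 1919 cells of the same libraries that had values above 0 for 2 of the 3 genes. Taken singly, Top2a was above 0 in 3.72% of later cells, Smc2 in 21.4% and Smc4 in 35.5%. The product of these shares, which independent detection would give, is 0.283%, against 0.905% seen. It was highest in Kmt2d+/βgeo at day 4, at 0.709% against 1.30% seen. No cell type that must lack these genes was identified, so a background share from free RNA was not measured.

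By library, the rule took 46 of 4900 Kmt2d+/βgeo cells at day 2 (0.939%, 0.688 to 1.25%) and 28 of 4098 wild-type cells (0.683%, 0.454 to 0.986%). At day 4 it took 33 of 2534 (1.30%, 0.898 to 1.82%) and 47 of 3511 (1.34%, 0.985 to 1.78%). At day 8 it took 9 of 2965 Kmt2d+/βgeo cells (0.304%, 0.139 to 0.575%) and 29 of 3212 wild-type cells (0.903%, 0.605 to 1.29%). At day 0 the shares had been 40.2% and 31.8%. All 6 later libraries lay far below both day 0 libraries, and at full depth the day 4 shares were not below the day 2 shares in either genotype. After thinning each cell to 3000 UMIs the order turned in Kmt2d+/βgeo, with 0.449% at day 2 and 0.395% at day 4, and was kept in wild type, with 0.293% and 0.342%, so no order of these days is read from the shares.

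The Kmt2d+/βgeo share minus the wild-type share was 0.256 percentage points at day 2 (Newcombe 95% interval −0.127 to 0.631) and −0.0364 at day 4 (−0.611 to 0.581), and both intervals span 0. It was −0.599 points at day 8 (−1.02 to −0.213). The day 8 Kmt2d+/βgeo library was also the shallowest, with a median of 7926 total UMIs per cell against 14243 in wild type. With every cell thinned to 3000 UMIs, which left out 764 Kmt2d+/βgeo and 4 wild-type cells, the shares at day 8 were 0.273% and 0.468%, and their difference of −0.195 points had an interval from −0.532 to 0.175. With Top2a and either condensin gene above 0 at full depth, the day 8 shares were 0.675% (0.412 to 1.04%) and 2.12% (1.65 to 2.68%), and with at least 2 UMIs of Top2a they were 0.304% (0.139 to 0.575%) and 0.623% (0.381 to 0.960%). These intervals count cells of single libraries, and with 1 library each no test between genotypes was possible at a single day.

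**Figure D1:**
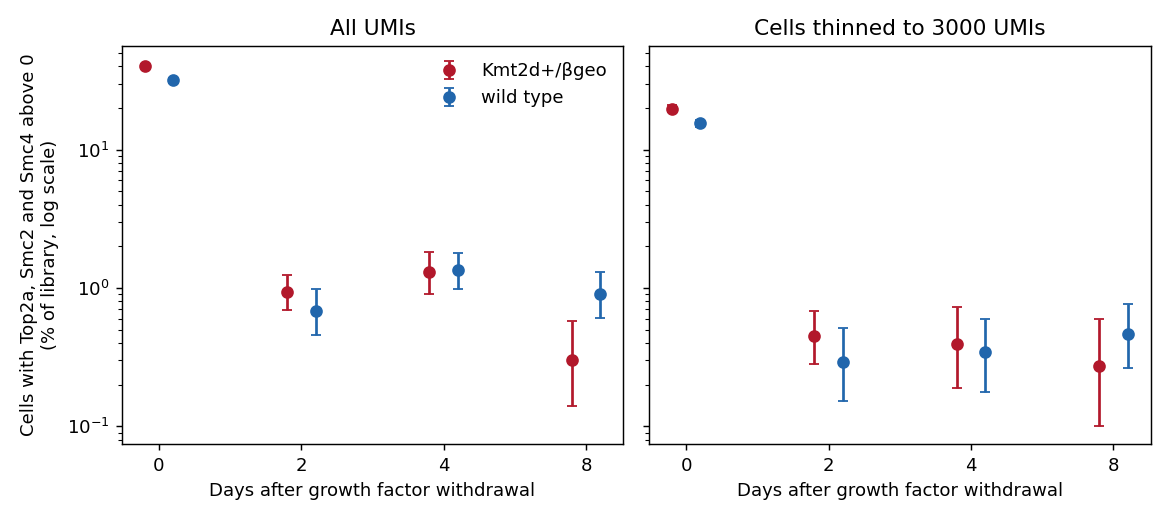
Share of each library's cells with values above 0 for Top2a, Smc2 and Smc4 (percent, log scale) by day, with all UMIs (left) and after thinning each cell to 3000 UMIs (right). Points are single libraries and bars are exact 95% binomial intervals; the later libraries sit between 0.304% and 1.34% at full depth, against 31.8% and 40.2% at day 0.

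Depth moved with the rule. The median total UMIs of the rule cells were 1.24 to 1.74 times those of Top2a-zero cells in the 6 later libraries, and 74 of the 192 lay above the 95th percentile of all later Top2a-zero cells. The part of depth in the results was not tested beyond thinning. Libraries shared between 0 and 10 cell barcodes per pair, and 0 rule cells had a barcode seen in another library. The day 4 pair stood apart in another way: among Top2a-zero cells, 0 of 7452 genes differed 2-fold or more between the genotypes at day 4. The counts were 35 of 7114 at day 0, 79 of 7360 at day 2 and 147 of 7567 at day 8. Among rule cells, which are few at the later days, 117 of 7795 differed at day 4. There the counts were 34 of 7058 at day 0, 397 of 7565 at day 2 and 2318 of 7837 at day 8. Whether the day 4 libraries are a pair of alike cultures or a swapped or shared sample cannot be told apart from the files. Day 4 values, with the day 4 share difference above, are therefore given under their labels and no genotype difference is read from them. Counts of called genes are therefore also given without both day 4 libraries. Between rule cells and Top2a-zero cells, 20 of the genes followed by name lost the call without them. Most of these are given below, but not every one.

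Whether the rule cells were cycling was checked with genes the rule did not use. Cell-cycle position θ was each cell's angle in a plane of 2 principal components that were computed from 447 cell-cycle genes, learned on day 0 cells with the 3 rule genes left out, and the window from 0.25π to 1.5π was read as S, G2 and M phase. Of the 192 rule cells, 116 lay in the window (60.4%, 53.1 to 67.4%). In Kmt2d+/βgeo these were 29 of 46, 16 of 33 and 9 of 9 rule cells at days 2, 4 and 8. In wild type they were 14 of 28, 26 of 47 and 22 of 29. The pooled interval does not cover this spread between libraries. Among Top2a-zero cells of the same libraries, 67 of 20430 lay in the window (0.328%, 0.254 to 0.416%), and after thinning to 3000 UMIs 183 of 19668 (0.930%). At full depth, 31 of 1919 cells with 2 of the 3 genes did (1.62%, 1.10 to 2.29%). Among day 0 cells of the same rule it was 2985 of 3283 (90.9%). The study used this window with its own neurosphere reference, whereas the plane here was learned on day 0 cells. The day 0 share is thus that of cells it was learned from. Cycling cells in G1 would also fall outside the window. By this measure 116 of the 192 were in S, G2 or M phase, and the other 76 lay outside the window.

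The amount of rule transcript separated these. All 95 later rule cells with at least 2 UMIs of each gene lay in the window (lower 95% limit 96.2%), whereas 1 of the 35 with 1 or fewer of each did (2.86%, 0.0723 to 14.9%). By Top2a alone, 111 of 118 cells above 1 UMI were in the window (94.1%) and 5 of 74 at 1 UMI or less (6.76%). At day 0, cells at 1 UMI or less of each gene were in the window in 36 of 109 cases (33.0%). Total UMIs moved with these classes. In 4 of the 5 later libraries that held both, the median of cells with Top2a above 1 UMI was 1.26 to 1.57 times that of cells at or below it, and in wild type at day 8 it was 0.930 times. All 9 cells of the shallow day 8 Kmt2d+/βgeo library, with a median of 13814, were above 1 UMI.

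**Figure D2:**
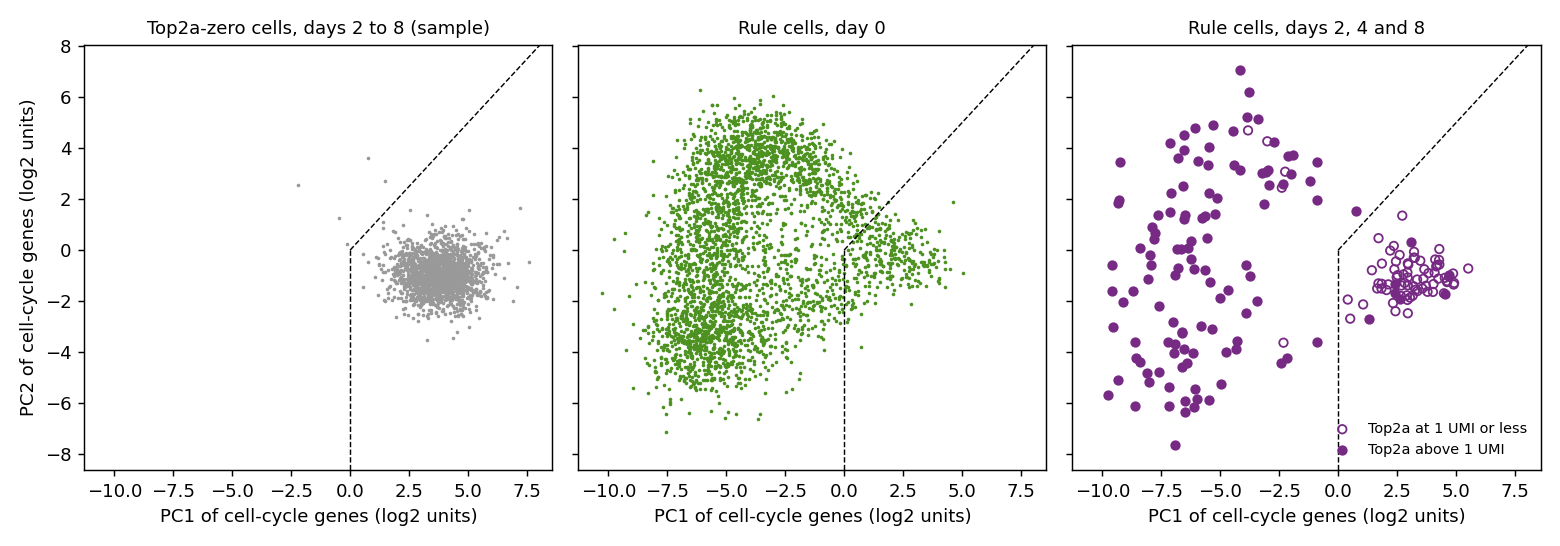
Position in the plane of the leading principal components of 447 cell-cycle genes (PC1 and PC2, log2 units) for a sample of Top2a-zero cells of days 2 to 8, for day 0 rule cells and for the 192 later rule cells, where filled points have Top2a above 1 UMI. Dashed lines bound the window from 0.25π to 1.5π, which lies to their left; filled points follow the arc of the day 0 cells, and nearly all open points lie with the Top2a-zero cells.

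**Figure D3:**
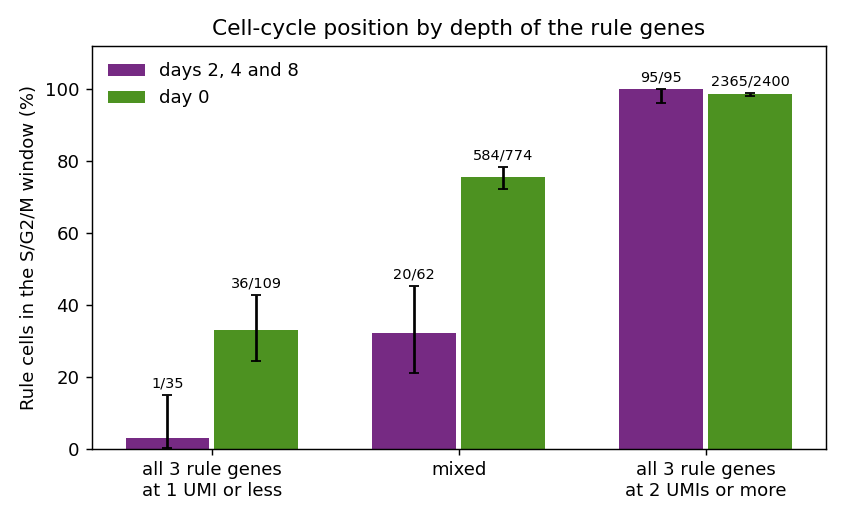
Percent of rule cells in the S/G2/M window by how many UMIs of the rule genes they held, at days 2, 4 and 8 and at day 0. Bars are shares with exact 95% intervals and the counts stand above them: 1 of 35, 20 of 62 and 95 of 95 at the later days.

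Where in the cycle the remaining cells sat differed from library to library. At day 2, 22 of 29 Kmt2d+/βgeo and 11 of 14 wild-type cells in the window were past π, the G2/M side. The counts were 8 of 16 and 7 of 26 on day 4, and 4 of 9 and 7 of 22 on day 8. Among day 0 rule cells 1414 of 2985 were past π. With 1 library per genotype and day these orders are descriptions and were not tested.

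Other cycle genes were also counted per cell at equal depth, in classes of cells set at full depth. After thinning to 3000 UMIs, the later rule cells had a median of 6 of 17 other G2/M genes and 4 of 22 S phase genes detected. Top2a-zero cells had 3 and 1, and day 0 rule cells 7 and 5. The S phase median was 3.5 in Kmt2d+/βgeo and 2 in wild type at day 2. It was 3 in both on day 4. On day 8 it was 4 in Kmt2d+/βgeo and 8 in wild type. Wild-type cells at day 8 were the highest of the later libraries in S phase genes.

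The rule cells were then compared with Top2a-zero cells over 7504 genes, with the 3 rule genes left out. For each library the mean normalised count of each class was taken, log2(mean + 0.1) was fitted by limma with library as a block, and genes were called at a Benjamini-Hochberg adjusted p under 0.05. The day 8 Kmt2d+/βgeo library, with 9 rule cells, was dropped from the fit, leaving 5 libraries that are different days and genotypes and not replicates of 1 condition. In rule cells 731 genes were higher (9.74% of those tested) and 516 were lower (6.88%), and the median difference over all genes was 0.01. Each list count of this comparison below is to be set beside these shares. The matrix held the cycle lists only in part: 17 of 52 G2/M genes, 16 of 50 kinetochore and spindle genes and 22 of 43 S phase genes. Without both day 4 libraries 184 were higher and 46 lower, and with 1 of that pair, Kmt2d+/βgeo, kept they were 399 and 207. After thinning they were 330 and 230, of which 313 and 204 were among those called at full depth. The cells thinned here were still those chosen at full depth. In the library left out of the fit, 650 of the 731 were also higher and 476 of the 516 also lower. The median difference over all tested genes was −0.0351 in that library. Its 9 rule cells were chosen by the same 3 genes, so this is no independent check.

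Mitotic genes led the rise. The rule genes serve mitosis, and the comparison cells were chosen for 0 Top2a. A rise of cycle genes expressed together with the rule genes was therefore built into the choice of cells. The counts and p-values of cycle genes here and below describe these cells and are no independent test of cycling. Of 17 tested genes of the G2/M list 16 were higher and 0 lower, with a median log2 difference of 2.06. Of 16 kinetochore and spindle genes 13 were higher and 0 lower, with a median of 1.97, and these lists share genes. Without both day 4 libraries 15 and 12 were higher. Kif11, a kinesin that pushes spindle poles apart, averaged 1.32 and 1.18 normalised counts in rule cells at day 2 (Kmt2d+/βgeo, then wild type), 1.34 and 1.43 on day 4, and 2.08 and 1.92 at day 8. In Top2a-zero cells it was between 0.0105 and 0.0399 in all 6. The groups did not overlap, and the log2 difference was 3.67 ± 0.13 (SE, 5 libraries, limma adjusted p = 7.4e-08). The Top2a-zero level of Kif11 was under the minimum of 0.1, so the gene entered the test through the rule cells, where it is high. It was also under the 0.1 added before the logarithm, so the size of the difference depends on that value. Both limits apply to any other gene of this comparison whose Top2a-zero level is under 0.1. Top2a-zero levels of the mitotic genes that follow are not given here. Nusap1, a spindle microtubule protein, differed by 4.00 ± 0.17 (limma adjusted p = 2.2e-07) and Ckap2, a spindle-associated protein, by 3.54 ± 0.19. Knl1, a kinetochore scaffold, was 3.47 higher, Tacc3, which steadies spindle microtubules, 2.80, Ect2, an activator of cytokinesis, 2.80, Cenpk 2.62, and Kif18a 2.60, all 5 called.

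Condensin and cohesin genes other than those of the rule moved in part. Of 16 tested, 10 were higher and 0 lower, with a median of 0.61. Non-SMC condensin subunits were the leading ones: Ncapd2 differed by 2.50 ± 0.16, Ncapg2 by 2.13 ± 0.17 and Ncapd3 by 1.69 ± 0.21. Rad21, the cleavable cohesin subunit, was 1.29 higher. The other 6 did not pass the test, and without both day 4 libraries 6 of the 16 were higher.

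Replication genes rose with them. Of 22 tested S phase genes 20 were higher and 0 lower (median 1.56), and of 26 genes of the replication machinery 23 were higher and 0 lower (median 1.28); these lists share genes. Without both day 4 libraries 16 of 22 and 12 of 25 tested were higher and 0 lower. Mcm6, a subunit of the replicative helicase, averaged 0.951, 0.872, 1.02, 1.38, 0.683 and 1.95 in rule cells of the 6 libraries (days 2, 4 and 8, Kmt2d+/βgeo before wild type), against 0.0802 to 0.182 in Top2a-zero cells. Every rule-cell value was above every Top2a-zero value, and the difference was 2.37 ± 0.17 (limma adjusted p = 1.03e-05). Atad2, a chromatin ATPase of S phase, was 3.02 higher, Rrm1, the large subunit of ribonucleotide reductase, 2.48, Dut 2.38, Tyms, which makes thymidylate, 2.18, and Tipin, of the fork protection complex, 1.60.

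Genes for chromatin made or remodelled with DNA replication were higher in 14 of 15 tested and lower in 0, with a median of 1.69, and in 12 of 15 without both day 4 libraries. Lmnb1, the nuclear lamina protein lamin B1, averaged 3.44 and 3.03 normalised counts in rule cells at day 2, 2.74 and 2.97 on day 4, and 4.40 and 4.53 at day 8. Its Top2a-zero means were 0.163 to 0.365, with no overlap, and the difference was 3.24 ± 0.19 (limma adjusted p = 1.79e-06). Tmpo, a lamina-associated protein, was 2.23 higher, Hells, a DNA remodelling helicase, 2.13, Ezh2, the H3K27 methyltransferase of Polycomb, 1.99, Nasp, a histone chaperone, 1.91, and Nucks1 1.69. Hells varied most between libraries, from 0.75 in wild type at day 2 to 3.63 in Kmt2d+/βgeo at day 8.

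By list, the early and late sides of the cycle varied between libraries. The S list median difference was 1.42 and 1.19 at day 2, 1.44 and 1.75 on day 4, and 2.12 and 2.43 at day 8, with Kmt2d+/βgeo given before wild type. The kinetochore and spindle median was 2.64 and 2.32, then 1.70 and 1.66, then 2.57 and 1.81. The G2/M list median was 2.12 and 2.17, then 1.83 and 2.06, then 2.60 and 2.13. At day 2 both late lists, which share genes, were above the S list in both genotypes. In wild type at day 8 both were below it, and in wild type at day 4 the G2/M median was above the S median and the spindle median below it.

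**Figure D4:**
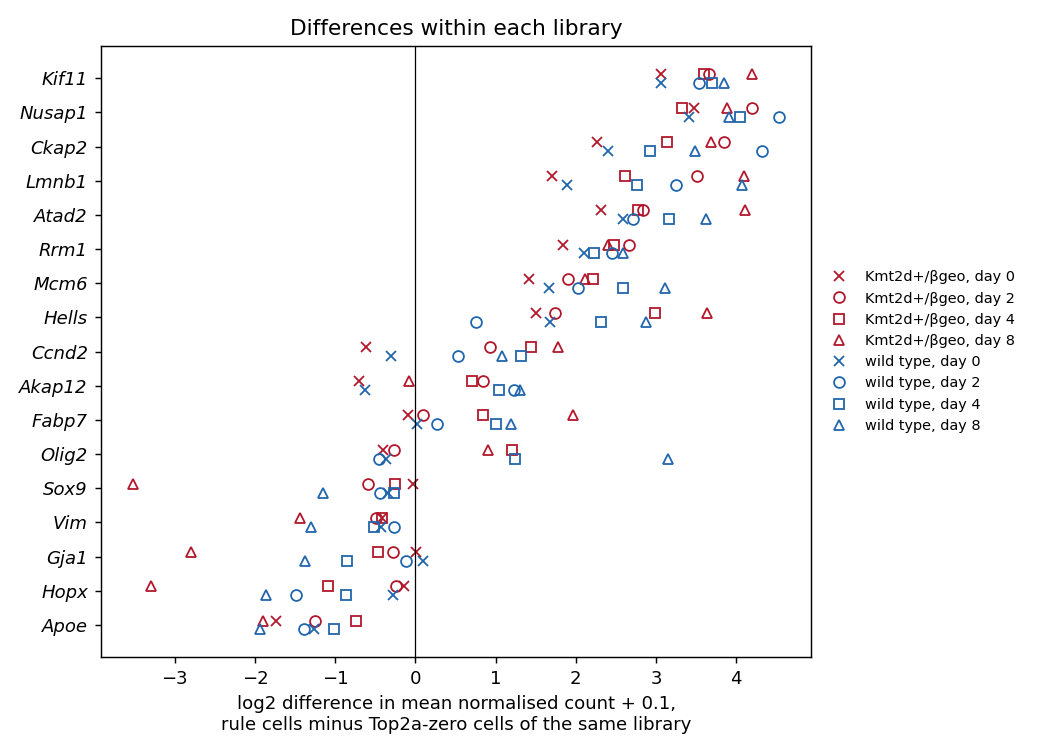
Log2 difference in mean normalised count plus 0.1 between rule cells and Top2a-zero cells of the same library for 17 genes, with 1 symbol per library (colour for genotype, shape for day). Mitotic and S phase genes lie to the right in all 8 libraries; Ccnd2, Akap12 and Fabp7 lie near or left of 0 at day 0, and Apoe lies left of 0 in all 8.

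Regulators of the cycle were mixed. Of 17 tested cyclin, CDK and regulator genes 7 were higher and 1 lower, with a median of 0.62 (4 and 1 without both day 4 libraries). Wee1, the kinase that holds back mitotic entry, was 1.70 higher, Rbl1, the pocket protein p107, 1.47, Lin9, of the complex that drives mitotic genes, 1.25 (limma adjusted p = 0.0775 without both day 4 libraries), and Cdkn2c, the CDK4/6 inhibitor p18, 1.17. Cdkn1a, the inhibitor p21, was 0.83 higher in the fit (limma adjusted p = 0.0136), but its level was 3.28 in rule cells and 3.29 in Top2a-zero cells of wild type at day 8. The gene that was lower was Cdkn2a (−0.84), the inhibitor p16 and Arf, named after its value was seen. Cdkn1b, the inhibitor p27, had a difference of 0.15 (limma adjusted p = 0.405). Of 10 tested p53 targets, 3 were higher (Cdkn1a, Aen and Zmat3) and 1 lower (Sesn1), with a median of 0.28; all 4 calls were lost without both day 4 libraries (limma adjusted p from 0.158 to 0.432).

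The growth factor, Notch and BMP lists gave 5 calls among them, to be set beside the 9.74% of all tested genes that were higher and the 6.88% that were lower. Of 10 tested EGF and FGF signalling genes 2 were higher, the ETS factors Etv4 (0.79) and Etv5 (0.59) that are induced by FGF signalling, and 2 were lower, the receptors Fgfr3 (−0.59) and Egfr (−0.45). Etv4 was higher in rule cells in all 6 libraries, at 1.64 against 1.36 normalised counts at day 2 and 0.442 against 0.174 at day 4 in Kmt2d+/βgeo, for instance. Each of the 4 calls was lost when some single libraries were left out, and without both day 4 libraries (limma adjusted p from 0.173 to 0.346). Of 9 tested Notch, BMP and Id genes 0 were higher and 1, the BMP receptor Bmpr1b, was lower (−0.57), a call that 4 of the 5 libraries were each needed for and that was lost without both day 4 libraries (limma adjusted p = 0.368; 0 of 8 tested called).

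Apoe and Hopx, genes expressed in astrocytes, were among the 10 lowest in the rule cells. Apoe, the lipid carrier made by astrocytes, averaged 88.7 and 57.1 normalised counts in rule cells at day 2, 146 and 111 on day 4, and 25.5 and 60.2 at day 8. In Top2a-zero cells of the same libraries it was 212 and 150, 244 and 225, and 95.1 and 232. Rule cells were lower in all 6 libraries, although the ranges overlapped between libraries, and the difference was −1.27 ± 0.15 (limma adjusted p = 0.000331). Hopx, a homeodomain protein of quiescent stem cells and astrocytes, was 1.11 lower on the log2 scale (limma adjusted p = 0.00338, 0.0782 without both day 4 libraries). Cryab, a small heat shock protein, averaged 3.89 to 10.7 in rule cells against 8.18 to 21.8 in Top2a-zero cells, lower in every library.

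Others among the 10 lowest genes were Phkg1, a phosphorylase kinase subunit (−1.29), Gpam, which starts glycerolipid synthesis (−1.07), Draxin, a guidance protein (−1.04), Gabrb1, a GABA receptor subunit (−1.04), and Pla2g7, a secreted phospholipase (−1.04; limma adjusted p = 0.062 without both day 4 libraries). The rest were 1190005I06Rik (−1.29), 4930402H24Rik (−1.13) and Nat8f1 (−1.05). All 10 were lower in all 6 libraries. Falls were smaller than rises: 162 genes were called higher by at least 1 on the log2 scale and 17 lower by as much. When rule cells were limited to those with at least 2 UMIs of Top2a, Apoe differed by −2.76 and Hopx by −2.43.

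Marker lists of neighbouring cell types were measured in part. Their counts are to be set beside the 9.74% of all tested genes that were higher and the 6.88% that were lower. The astrocyte list had 6 of 9 genes in the matrix: 3 were lower (Apoe; Gja1, the gap junction protein connexin 43, −0.62; Slc1a2, a glutamate transporter, −0.52), 0 were higher and the list's median was −0.51. The summed level of the 6 was 34.1 to 166 normalised counts in later rule cells, below that of Top2a-zero cells in every library. It was 14.2 and 15.4 in day 0 rule cells. Apoe made up most of this sum in every later library, for instance 25.5 of 34.1 in Kmt2d+/βgeo at day 8. The sum therefore says little about the rest of the list. Against day 0 rule cells, 1 of the 6, Apoe, was called higher and 0 lower, beside 0.394% and 0.0544% of all genes tested. None of the 6 was at 0 in any class, and Gfap, Aqp4 and Aldoc were not analysed here. Of 5 progenitor genes Fabp7, a fatty acid binding protein of radial glia, was higher (0.68), and Vim, an intermediate filament protein (−0.60), and Sox9, a glial and stem cell factor (−0.54), were lower. Without both day 4 libraries the calls of Fabp7, Vim, Sox9, Gja1 and Slc1a2 were lost (limma adjusted p = 0.277, 0.153, 0.0892, 0.275 and 0.0782), and that of Apoe held (0.00675). The neuron list had 3 of 8 genes in the matrix, of which 2 were tested and 0 called; Map2, a dendritic microtubule protein, had a difference of 0.31 (limma adjusted p = 0.156) and Rbfox3 was below the minimum level. Of the oligodendrocyte list 2 of 9 genes were tested, with Cnp, a myelin enzyme, lower (−0.38; limma adjusted p = 0.373 without both day 4 libraries) and Olig2 not called, and of the ependymal list 1 of 5, not called. Lists for intermediate progenitors, microglia and endothelial cells had 0 genes in the matrix, so those types could not be checked.

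Olig2, a factor of oligodendrocyte and transit-amplifying cells, differed by day. In rule cells it averaged 3.94 and 4.65 normalised counts at day 2, 5.47 and 5.29 on day 4, and 2.83 and 8.07 at day 8, with Kmt2d+/βgeo first. Top2a-zero cells held 4.78 and 6.38, then 2.31 and 2.18, then 1.47 and 0.822. Rule cells were lower at day 2 in both genotypes and higher at days 4 and 8 in both. Over the fit the difference was 0.98 ± 0.40 and missed the threshold (limma adjusted p = 0.121); with rule cells limited to at least 2 UMIs of Top2a it was 1.42 (limma adjusted p = 0.0354). Kmt2d itself was low in both classes, 0.133 to 0.270 in rule cells and 0.171 to 0.297 in Top2a-zero cells, with a difference of −0.18 (limma adjusted p = 0.486). Whether the trapped copy still gives 3′ tags is not stated in the sources used, so this level does not check the genotype labels.

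Motif letters were counted over these gene groups as a description. TTTGAA was in 16.2% of the 579 promoters found for genes called higher, in 25.8% of the 128 of those called higher by at least 1, in 10.8% of the 6045 promoters of all genes tested and in 7.21% of the 416 of genes called lower. CCAAT was in 46.8%, 54.7%, 38.3% and 38.5% of these groups, and GGCGGGAA in 10.9%, 11.7%, 4.43% and 2.64%. Over all 27025 promoters of this length the shares of the 3 motifs were 18.1%, 37.9% and 2.24%, so that of TTTGAA lay above its share among all called higher genes. A match shows only that the letters are there.

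Next, the contrast itself was compared between the later days and day 0, over 7396 genes in 7 libraries. 1 gene passed in limma, Akap12, which was higher (0.0135%), and 0 were lower; at an unadjusted p under 0.05 there were 203 and 105. The call was not stable: 0 genes passed with a pseudocount of 0.5, the mean of deposited log2 values, thinning or the day 8 Kmt2d+/βgeo library, without both day 4 libraries, or with any single library left out except wild type day 8, without which 6 were higher and 1 lower. Akap12, a scaffold of protein kinase A, averaged 3.14 and 1.76 normalised counts in day 0 rule cells and 5.19 and 2.78 in day 0 Top2a-zero cells. At the later days it was 1.20 and 0.636 against 0.621 and 0.214 at day 2, 0.220 and 0.282 against 0.0962 and 0.0854 on day 4, and 0.133 and 0.358 against 0.146 and 0.0852 at day 8. The within-library difference was thus −0.71 and −0.63 at day 0 and 0.71 to 1.23 at days 2 and 4. The change in difference was 1.70 ± 0.21 (limma adjusted p = 0.0485). In the day 8 Kmt2d+/βgeo library, outside the fit, it rested on 1 UMI.

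Ccnd2, cyclin D2, which carries growth signals to the cell cycle, moved in the same way but missed the threshold (1.52 ± 0.23, limma adjusted p = 0.108). At day 0 it averaged 8.54 and 7.82 in rule cells and 13.2 and 9.70 in Top2a-zero cells. At later days rule cells held 3.19 to 5.05 and Top2a-zero cells 1.17 to 2.32, without overlap. Within the later libraries alone rule cells were 1.06 ± 0.13 higher (limma adjusted p = 0.000381). For the S and G2/M lists the median contrast was 1.46 and 1.91 at day 0 and 1.56 and 2.06 later, and 0 of their genes were called in this comparison.

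Finally, rule cells of the later days were compared directly with day 0 rule cells over 7358 genes, with the genotype label as a covariate. 29 genes were higher (0.394%) and 4 were lower (0.0544%), and the count rested on single libraries: without the wild-type day 0 library both were 0, and without Kmt2d+/βgeo day 2 they were 72 and 13. The balance also moved with the averaging: the mean of deposited log2 values gave 5 higher and 9 lower, and a pseudocount of 0.5 gave 14 and 6. Without both day 4 libraries 1 was higher, Apoe, and 0 lower, and at an unadjusted p under 0.05 there were 326 and 157. This comparison shares its later rule cells with the ones above. Of the 22 S phase and 17 G2/M genes 0 were called in either direction, with medians of −0.21 and −0.07.

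Apoe led the genes that were higher in later than in day 0 rule cells. It was 4.35 ± 0.33 higher (limma adjusted p = 0.000377), from 6.33 and 3.03 normalised counts at day 0 to between 25.5 and 146 later, with no overlap, and 4.04 higher without both day 4 libraries (limma adjusted p = 0.0176). The calls of the other genes named here were lost without them (limma adjusted p from 0.116 to 0.449). Mt2, a metallothionein, was 3.13 higher, Pla2g7 3.09, Cryab 2.56 and Selenow, a small selenoprotein, 2.44 (limma adjusted p = 0.001). Lower were Arpc1b, of the actin-branching complex (−1.77), Srm, spermidine synthase (−1.66), Cpne8 (−1.58) and Rps15, a ribosomal protein (−1.27). The same difference between Top2a-zero cells of later days and of day 0 was 4.11 for Apoe, 2.88 for Cryab and 2.38 for Selenow. Some of these differences were smaller in cells with more Top2a. With at least 2 UMIs of Top2a required at both ages, a comparison added after seeing the data, 2 genes were higher, Apoe (2.94 ± 0.31, limma adjusted p = 0.00655) and Selenow (2.29 ± 0.22, limma adjusted p = 0.00542), and 0 were lower, while Mt2 was at 2.00, Pla2g7 at 2.06 and Cryab at 1.29, none of them called. Under that rule Apoe averaged 6.10 and 2.85 normalised counts at day 0 and 19.2 to 48.0 later, so later cells were above both day 0 libraries and below the Top2a-zero cells of their own libraries.

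**Figure D5:**
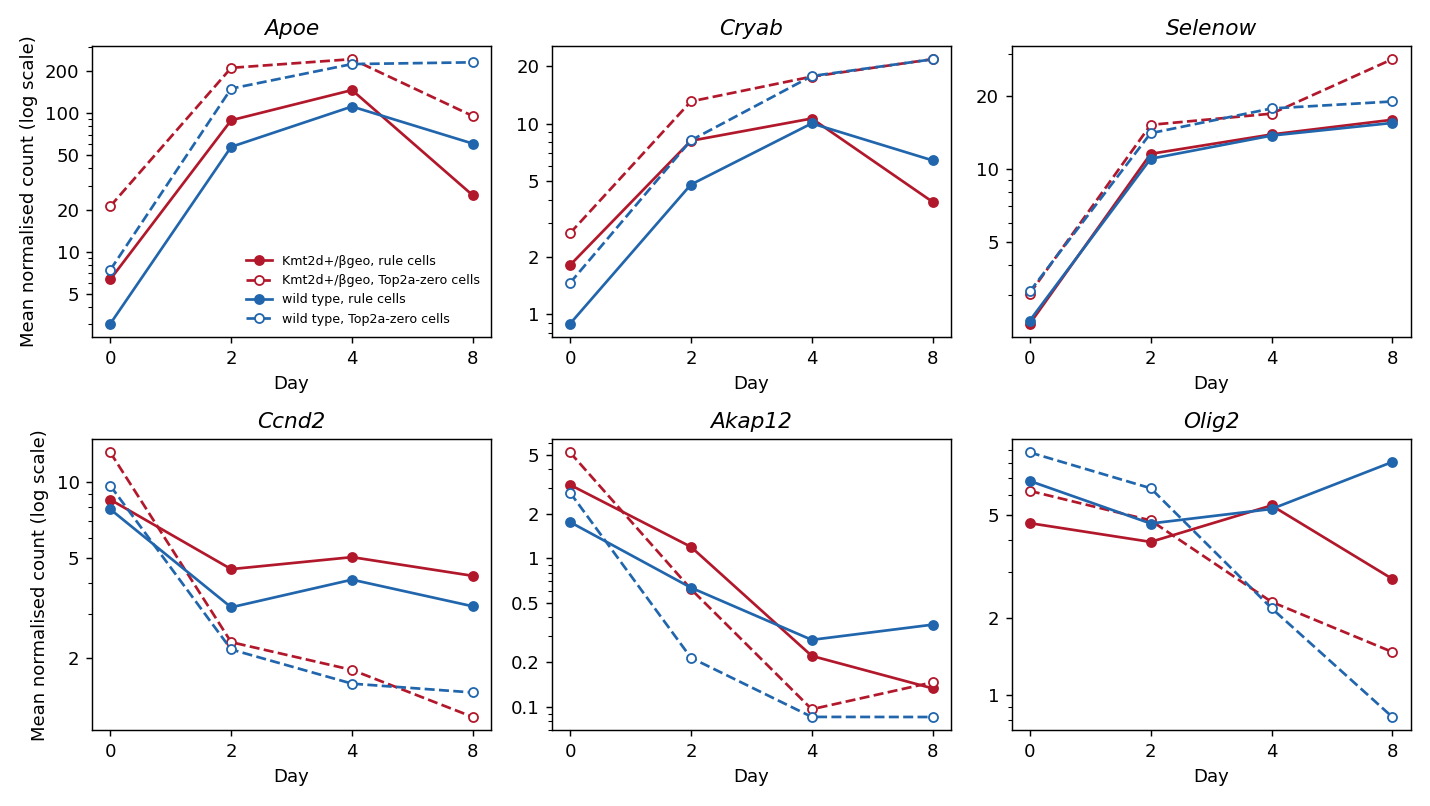
Mean normalised counts (log scale) of 6 genes by day in rule cells (filled, solid) and Top2a-zero cells (open, dashed) of each genotype, 1 library per point. Apoe, Cryab and Selenow lie above day 0 in both classes at the later days with rule cells lower, and Apoe in rule cells falls again from day 4 to day 8. Ccnd2 falls less in rule cells, and Olig2 lines cross between days 2 and 4.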

How the data were processed

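Per the labels and the study's methods, the authors counted molecules with alevin (Salmon 1.3.0) on GRCm38, filtered cells and doublets, left out mitochondrial and rarely seen genes, scaled each cell by library size and deposited log2 values for 9140 genes. The deposited cell table gives total UMIs per cell, an estimated count by the authors. The estimated UMIs of the 9140 genes made up a median of 46.6% of that total per cell. Median total UMIs per library were 7926 to 23219. Log2 values were turned back to normalised counts. The commonest value of a cell was taken as 1 UMI, and 86.8% of nonzero values were then within 0.01 of a whole UMI. Estimated UMIs were rounded for thinning to 3000 per cell. For shares the rule was applied again after thinning. For gene comparisons, position and counts of cycle genes the classes set at full depth were kept. Shares have exact Clopper-Pearson intervals. Class means per library were tested with limma 3.58.1 (trend, R 4.3.3) on log2(mean + 0.1), where the mean over the values fitted was at least 0.1 and a library had at least 10 rule cells. The code was tested on simulated data. The p-values measure the spread between these libraries, and cells were never replicates. Position used cyclone, S and G2/M genes without the alignment step of the study. Text was limited to the rule genes, the 10 highest and 10 lowest called genes, up to 4 called genes per list, the 5 highest and lowest called in the other 2 comparisons, and a fixed list. The 10 highest and 10 lowest were taken only from genes with 1 sign in all 5 libraries of the fit. The cells, lists and genes were chosen with earlier results of these data known. Mki67, Pcna and Ccnd1 of the fixed list were not analysed here. Alternatives changed the pseudocount, minimum, averaging, depth, rule, comparison cells, block, libraries, embedding genes and window.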

Additional observations from a re-analysis of the deposited data

Results flagged for a closer look

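Akap12 was marked because its log2 difference between rule cells and Top2a-zero cells itself differed between the later days and day 0, by 1.70 (limma adjusted p = 0.0485, 7 libraries); the difference was negative in both day 0 libraries and positive in all 5 later libraries of the fit, while in the day 8 Kmt2d+/βgeo library, outside the fit, rule cells held 0.133 normalised counts against 0.146 (1 UMI), and over the alternatives its adjusted p ran from 0.00724 to 1.00. The share of rule cells was marked because the genotype difference had opposite signs at day 0 (8.41 percentage points higher in Kmt2d+/βgeo) and at day 8 (−0.599 points), with 1 library per genotype and day. That difference between days was not tested, and at equal depth the values were 4.34 points at day 0 and −0.195 at day 8. No group held enough libraries to look for a library far from the others.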

How the results depend on the processing

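Within libraries, the replicate block tied rule cells to the Top2a-zero cells beside them, and with no replicate block 382 genes were higher and 92 lower in rule cells. Thinning gave 330 and 230, at least 2 UMIs of Top2a gave 1098 and 910, and the mean of deposited log2 values gave 1058 and 323. Genotypes paired by day were not tested. Over the libraries left out, 184 to 737 were higher and 46 to 534 lower, the lowest without both day 4 libraries; without the wild-type day 4 library they were 399 and 207, without Kmt2d+/βgeo day 4 471 and 276, and without Kmt2d+/βgeo day 2 544 and 329. With the day 8 Kmt2d+/βgeo library, added after seeing the data, they were 672 and 454. The change of the contrast since day 0 gave 0 higher genes with a pseudocount of 0.5, mean log2, thinning or that library, 0 to 6 higher and 0 to 1 lower with libraries left out. Later against day 0 rule cells gave 14 and 6 (pseudocount 0.5), 16 and 2 (minimum 0.5), 5 and 9 (mean log2), 16 and 2 (thinned), 2 and 0 (with day 8 Kmt2d+/βgeo, and with at least 2 UMIs of Top2a), and 0 to 72 and 0 to 13 with libraries left out.

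Thinning, at least 2 UMIs of Top2a, and Top2a with either condensin gene gave shares of 19.8%, 33.7% and 51.3% in Kmt2d+/βgeo and 15.5%, 26.6% and 45.3% in wild type at day 0. At day 2 they were 0.449%, 0.612% and 2.73%, and 0.293%, 0.390% and 1.83%. At day 4 they were 0.395%, 0.671% and 4.06%, and 0.342%, 0.684% and 3.22%. At day 8 they were 0.273%, 0.304% and 0.675%, and 0.468%, 0.623% and 2.12%. Top2a-zero cells were in the window in 0.534% (S and G2/M lists only), 0.186% (from 0.5π) and 0.930% (thinned), and day 0 rule cells in 88.6% (from 0.5π); later rule cells stayed within 59.9 to 60.9%. For named genes in rule cells against Top2a-zero cells alone, 633 values kept sign and side of the threshold, 101 lost the call and 3, of genes not called in that comparison, changed sign: Arpc1b (−0.064) and Cdkn1b (−0.079) with the day 8 Kmt2d+/βgeo library, and Cpne8 (−0.20) without both day 4 libraries. This tally leaves out the settings with a changed minimum, changed comparison cells or at least 2 UMIs of Top2a. Under the last of these Olig2 passed the threshold, which it missed in the main fit. The causes were not tested. A library with 9 to 47 rule cells limits every value by counting.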
